A study of Mus musculus with 8 samples.

Results

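The 9 genes described here carry or handle iron, retinol and thyroid hormone, and were described by the RNA polymerase II (Pol II) signal over them in mouse liver: Ttr, Rbp4, Trf, Cp, Hamp, Tfr2, Tfrc, Slc40a1 and Fth1. They were chosen by name, as 9 of the 21887 protein-coding genes of the RefSeq gene table on GRCm38.p6 (mm10). Earlier results of these data were known when they were chosen. The liver makes most of the plasma carriers in this group. Transthyretin carries thyroxine and binds retinol-binding protein, which brings retinol out of the liver, and transferrin carries iron to cells that take it up through transferrin receptors. Hepcidin, a peptide hormone from hepatocytes, leads to the breakdown of ferroportin, the iron exporter, and ferritin stores iron inside cells.

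The signal came from Pol II ChIA-PET, in which crosslinked chromatin is pulled down with a Pol II antibody (clone 8WG16), DNA ends held together are joined through a linker, and each joined pair is sequenced as a paired-end tag (PET). The livers were from wild-type C57BL/6 mice aged 3 to 6 months, kept with 12 h of light and 12 h of darkness and fed ad libitum. They were collected at ZT06, the middle of the day, or ZT18, the middle of the night, and chromatin of 3 to 7 livers was pooled. Experiments 1 (JM08) and 3 (JM12) were crosslinked with 1.5 mM EGS and 1% formaldehyde, and experiment 2 (JM11) with 1% formaldehyde alone. The 8 libraries comprised 2 per time point from experiment 1 and 1 per time point from each of the others. The table names the experiment of each PET but no library or time point, so day and night were not compared here and each experiment is treated as 1 pool. There is no spread between replicates, no test between experiments was run, and crosslinking and experiment cannot be told apart. All intervals are 95% and cover counting error only, since PCR reads without molecular identifiers are not independent molecules.

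The table held 474478, 1438866 and 840210 PETs in experiments 1, 2 and 3. This gave 0.349, 1.06 and 0.616 PET ends per kb of the nuclear genome. PETs with an end on mitochondrial DNA numbered 12, 14 and 2239, and the rest are called nuclear here. The hepatocyte markers had high signal, with at least 2-fold the nuclear mean at 10, 8 and 9 of 10 genes in experiments 1, 2 and 3 and medians of 56.3, 6.41 and 11.7 times that mean. Of the 34 markers of Kupffer cells, sinusoidal endothelium, stellate cells, cholangiocytes, leukocytes, erythroid cells and other tissues, the medians of the 7 lists lay between 0.579 and 1.88, and the bile duct gene Sox9 was the 1 marker at 2-fold or more in every experiment (5.71, 2.15 and 4.77).

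Relative density, used throughout, is the number of PET ends per base over a gene and 2.5 kb either side, divided by the mean over all nuclear chromosomes in the same experiment. It is a density per length, but the fixed flank makes up more of the window in short genes. With no flank, the value in experiment 1 went from 14.6 to 34.5 for Hamp and from 2.98 to 3.15 for Cp. The carriers Ttr, Rbp4 and Trf and the storage gene Fth1 were among the densest genes of the genome in all 3 experiments. Slc40a1 was intermediate among the 9 genes, although it ranked 762, 2051 and 1045 of all 21887. Hamp was likewise intermediate among the 9 in experiment 1, at rank 304 of all 21887. In experiment 2 Hamp, Tfr2, Cp and Tfrc were close to the mean. In bulk liver, fewer cells of a type and less signal per cell cannot be told apart. At least 2-fold the nuclear mean was reached by 9 of the 9 genes in experiment 1, where 27.7% of all protein-coding genes reached it, by 4 in experiment 2 (background 6.52%) and by 7 in experiment 3 (background 25.4%). The 4 genes Ttr, Rbp4, Trf and Fth1 reached it in every experiment, against 5.32% of all genes. Because the 9 genes were chosen with earlier results known, these counts describe the set and are no independent finding. The median relative density over the 9 genes was 14.6, 1.81 and 3.95 in experiments 1, 2 and 3, against 1.22, 1.20 and 1.42 over all protein-coding genes. Without experiment 2, 7 of the 9 genes reached 2-fold in both other pools, as did 19.0% of all genes. The median in experiment 1 was 34.5 with no flank and 8.61 with a flank of 5 kb.

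**Figure D1:**
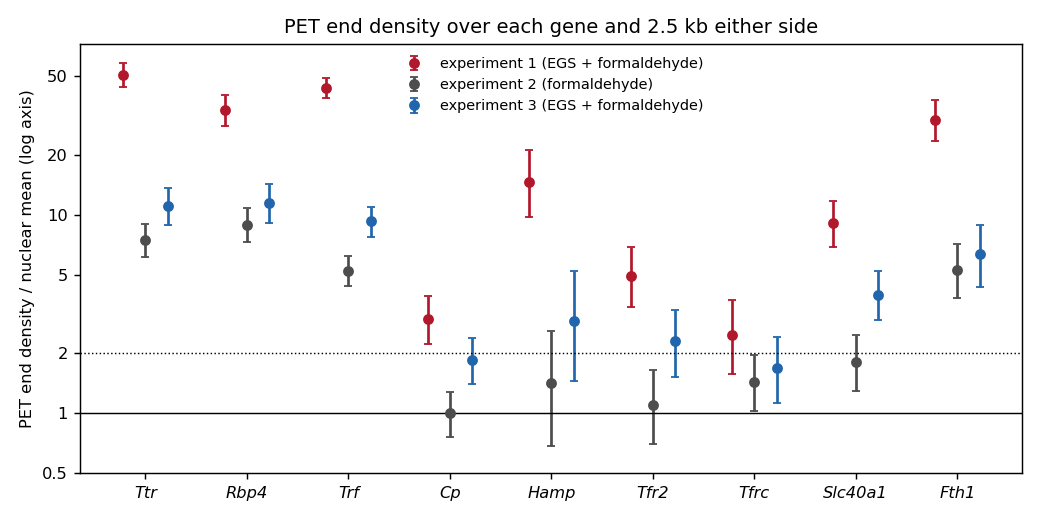
Relative density of PET ends over each gene and 2.5 kb either side, on a log axis, in the 3 experiments. Points are values, bars are 95% counting intervals, the solid line marks the nuclear mean and the dotted line 2-fold. Ttr, Rbp4, Trf and Fth1 lie above 2-fold in every experiment, and the point of experiment 1 is the highest for each gene.

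Ttr encodes transthyretin, the plasma carrier of thyroxine (gene ID 22139, chr18:20664209-20674326). Its window held 268, 119 and 103 PET ends in experiments 1, 2 and 3. The relative density was 50.9 (44.2 to 58.2), 7.45 (6.10 to 9.01) and 11.1 (8.93 to 13.6), which ranked 25, 38 and 52 among the 21887 genes. Ttr was thus far above the genome mean in each pool. The interval of experiment 1 lay apart from the others, and those of experiments 2 and 3 just overlapped. Of the 9 genes, 6 had start sites in the RefSeq promoter table, and Ttr, Trf and Slc40a1 are described by their boundaries instead. The signal covered most of the length of Ttr. The 1 kb bin over the lower boundary held 0, 0 and 1 ends and the next bin inside the gene held 74, 18 and 18. Of 5 equal sections counted from the lower coordinate, section 1 was the densest in all 3 experiments (142, 14.5 and 20.9), and the least dense section still had 31.2, 6.08 and 11.2 times the mean. Beyond the gene it ended abruptly: the 2.5 kb below the lower boundary had 1.15, 1.89 and 0.650, and the 2.5 kb above the higher boundary had 5.74, 1.89 and 2.60. The long noncoding RNA gene Gm16090 overlaps 1052 bp of Ttr at the lower end, and the 3552 bp it shares with the window held 18, 8 and 3 of the ends.

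Rbp4 encodes the retinol carrier of plasma (gene ID 19662, chr19:38116620-38125321, minus strand). Its window held 161, 129 and 97 ends. The relative density was 33.7 (28.1 to 40.1), 8.91 (7.30 to 10.8) and 11.5 (9.10 to 14.3), with ranks of 59, 22 and 46. Rbp4 thus stood at the top of the 9 genes in experiments 2 and 3, where its ratio to Ttr was 1.20 (0.906 to 1.58) and 1.04 (0.760 to 1.42), both within counting error of 1. The distribution along Rbp4 differed between experiments. In experiment 1 the 5 sections of the body had 31.3 to 52.7. There 14.9% (9.79 to 21.4%) of the window's ends lay within 1 kb of the outermost annotated start, where an even spread would put 14.6%. In experiment 2 that share was 35.7% (27.4 to 44.6%), and in experiment 3 it was 21.6% (13.9 to 31.2%). The intervals of experiments 1 and 2 do not overlap, but they count ends, and both ends of 1 PET can lie in the window. They can therefore be too narrow. Around an inner start at 38124811, 0.51 kb further in, the shares were 17.4%, 39.5% and 22.7%. The densest 1 kb bin of Rbp4 lay just inside the start in each experiment, experiment 1 included. It held 24, 44 and 18 ends (68.8, 41.6 and 29.2). High density went on past the end of the gene, with 32.1, 7.95 and 11.0 in the 2.5 kb downstream, and was low in the 2.5 kb upstream (5.74, 1.51 and 3.90). The window reaches 144 bp of Ffar4 and 2068 bp of the noncoding Gm32440, which held at most 5 ends in any experiment.

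Trf encodes transferrin, the iron carrier of plasma (gene ID 22041, chr9:103208876-103230286). With 403, 146 and 151 ends it had the most ends of the 9 genes in each experiment, over the largest window but those of Cp and Tfrc. The relative density was 43.8 (39.0 to 48.9), 5.23 (4.37 to 6.21) and 9.29 (7.74 to 11.0), with ranks of 32, 81 and 81. The gene was covered from end to end and the higher-coordinate end stood out: within 1 kb of that boundary the relative density was 129 (99.6 to 164), 18.4 (12.8 to 25.8) and 30.0 (20.4 to 42.6). The section at that end held 36.8%, 45.0% and 39.7% of the ends within the gene. Signal also continued below the lower boundary, where the flanking 2.5 kb had 48.2, 3.78 and 9.10. Among the 12879 protein-coding genes with at least 10 ends in each experiment, those with a small distance to Trf in log2 relative density over the 3 experiments included Dbp (43.7, 5.06 and 8.20) and Fahd1 (46.1, 6.05 and 9.89). By the same measure the nearest to Ttr were Slc35g3 (56.5, 7.61 and 12.8), Apoa2 (53.5, 8.10 and 13.4) and Eef1a1 (42.7, 6.40 and 10.4). The nearest to Rbp4 were Elovl3 (32.0, 9.57 and 10.9), Junb (32.7, 8.02 and 12.6) and Apoe (30.2, 7.71 and 13.4).

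Cp encodes ceruloplasmin, the copper-containing ferroxidase of plasma (gene ID 12870, chr3:19956933-20009750, plus strand). It was less dense than the other 3 plasma carriers in each experiment, and at the genome mean in experiment 2. Its window of 57.8 kb held 60, 61 and 66 ends, a relative density of 2.98 (2.23 to 3.89), 0.998 (0.762 to 1.28) and 1.85 (1.40 to 2.40). In experiment 2 the interval includes 1, and the gene ranked 15132 of 21887. Ends were spread along the gene, and the densest of 5 sections held 25.9%, 30.4% and 27.4% of those within it. Sections 1 and 4 had equal counts in experiment 1 (15 ends each), and the densest was section 3 in experiment 2 and section 4 in experiment 3. Within 1 kb of the outermost start lay 7, 6 and 1 ends, which is 11.7%, 9.84% and 1.52% where an even spread would give 3.46%. Hps3 overlaps 13806 bp of Cp, and its shared stretch held 18, 17 and 18 of the window's ends, so these cannot be assigned to either gene. Hps3 itself had 2.52, 1.19 and 1.57.

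**Figure D2:**
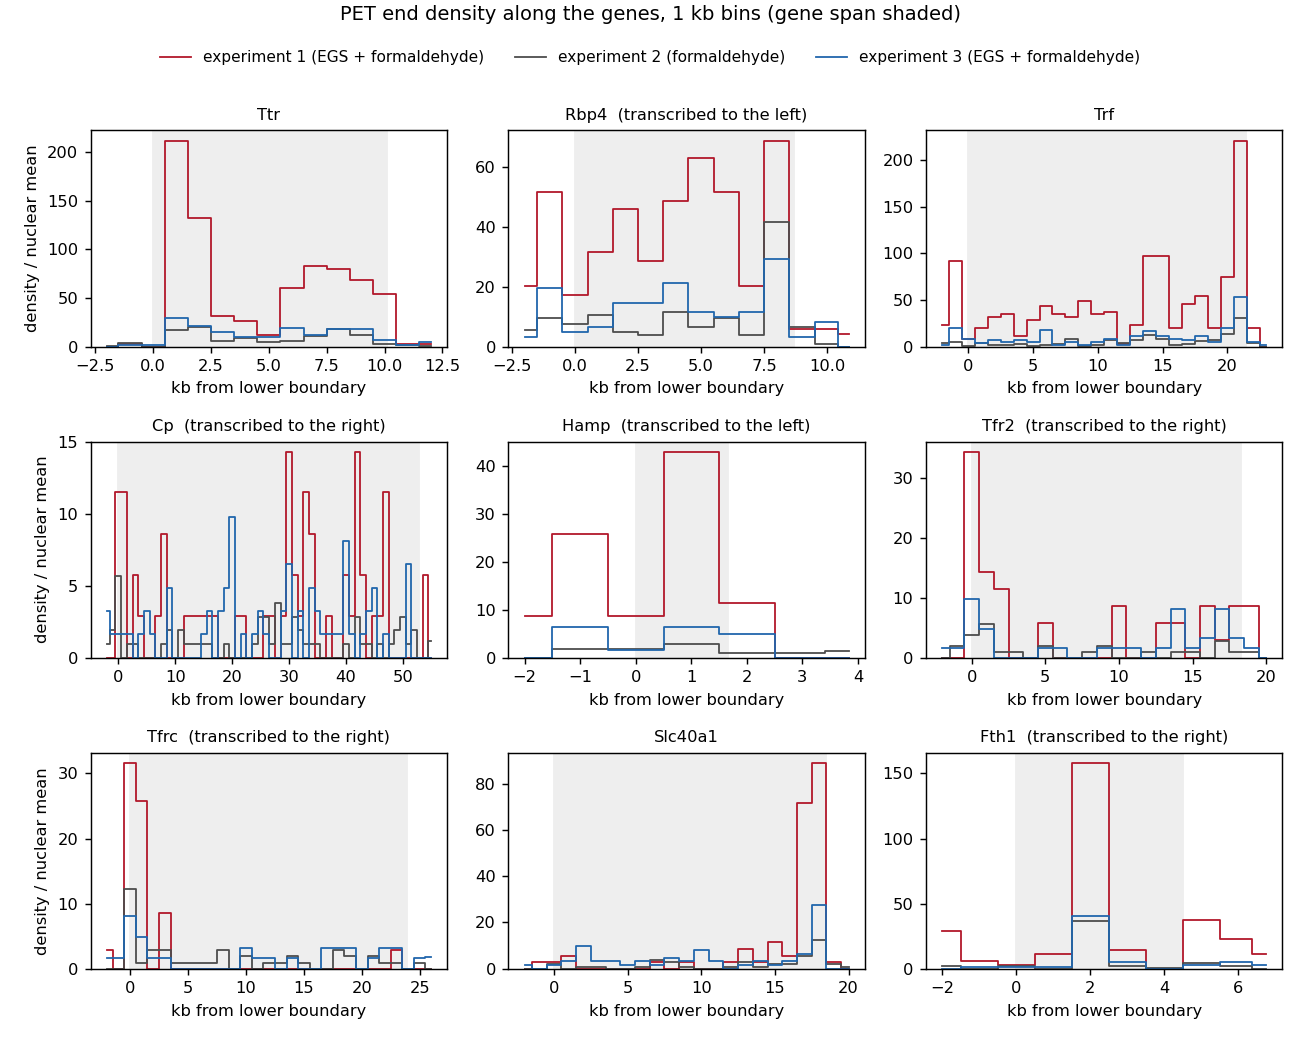
Relative density of PET ends in 1 kb bins along each of the 9 genes, against the distance in kb from the lower-coordinate boundary, with the gene span shaded and 1 line per experiment. Vertical scales differ between panels. Ttr, Rbp4 and Trf are covered along most of the span, whereas Fth1, Slc40a1, Tfrc and Tfr2 have their highest bin of experiment 1 at 1 place, and Cp has few ends in any bin.

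Hamp encodes hepcidin (gene ID 84506, chr7:30942368-30944029, minus strand), and it has a neighbouring copy, Hamp2. Hamp had clear signal in experiment 1 and fewer ends in the others. Its window of 6.66 kb held 34, 10 and 12 ends, a relative density of 14.6 (9.73 to 21.2), 1.42 (0.681 to 2.61) and 2.93 (1.46 to 5.23). The interval of experiment 2 includes 1. Most of this window is flank, and with no flank the values were 34.5, 2.28 and 4.89. Hamp thus reached 2-fold in every experiment with no flank, and also with a flank of 1 kb. The values with no flank rest on 20, 4 and 5 ends, and no interval was computed for them. In experiment 1, 11 of the 20 ends within the gene lay in section 2 counted from the start and 5 in section 1, and density within 1 kb of the start was 27.2 (15.9 to 43.6) against 1.42 (0.292 to 4.14) and 4.87 (1.79 to 10.6) in experiments 2 and 3. Usf2 lies upstream of Hamp, with 20.6, 2.44 and 6.42 over its own window, but the 1282 bp that the Hamp window shares with it held 0, 2 and 0 ends. Hamp2 had 2, 3 and 1 ends (0.842, 0.417 and 0.239 times the mean), with intervals that include 1 in each experiment. The sources used here do not give how reads that match both copies were treated, so the values of both genes are uncertain.

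The 250 bases before the starts of Hamp and Hamp2 are shown because Hamp held more ends than Hamp2 in these counts, whose split between the copies is uncertain, and to show how alike the upstream sequences are, with 227 of 253 aligned columns identical (89.7%, 20 mismatches and 6 gaps). Both are from RefSeq on GRCm38.p6, minus strand, 5′ to 3′, at chr7:30944030-30944279 and chr7:30924182-30924431. Capitals mark matches, on either strand, to GGCGCC, the core of the BMP-responsive element known from hepcidin promoters, and to the STAT motif TTCNNNGAA.
Hamp: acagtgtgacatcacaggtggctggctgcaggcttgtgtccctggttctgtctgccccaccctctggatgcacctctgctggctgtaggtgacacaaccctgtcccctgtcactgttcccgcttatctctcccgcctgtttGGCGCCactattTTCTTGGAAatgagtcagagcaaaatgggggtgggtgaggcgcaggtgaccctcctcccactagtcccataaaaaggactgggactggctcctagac
Hamp2: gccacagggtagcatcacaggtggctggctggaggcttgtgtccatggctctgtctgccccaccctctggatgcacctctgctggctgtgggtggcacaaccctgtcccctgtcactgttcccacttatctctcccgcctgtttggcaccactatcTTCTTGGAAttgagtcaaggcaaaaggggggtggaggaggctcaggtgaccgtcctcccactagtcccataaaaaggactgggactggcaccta
Hamp holds GGCGCC 109 bases before the start and the STAT motif 97 bases before it. Hamp2 holds the STAT motif at 94 bases and has no GGCGCC in this window. Over 32851 RefSeq promoter windows of the same length, 9.59% held GGCGCC and 7.02% the STAT motif. A match is a description of letters and no measurement of binding.

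Tfr2, transferrin receptor 2, is a hepatocyte sensor of iron-loaded transferrin (gene ID 50765, chr5:137569822-137588081, plus strand), and Tfrc, transferrin receptor 1, takes up transferrin iron in most cells (gene ID 22042, chr16:32608896-32632794, plus strand). Both were low compared with their ligand Trf. Tfr2 had 40, 27 and 33 ends, a relative density of 4.93 (3.42 to 6.89), 1.10 (0.696 to 1.65) and 2.30 (1.53 to 3.33). Tfrc had 25, 44 and 30 ends, a relative density of 2.48 (1.57 to 3.72), 1.44 (1.02 to 1.97) and 1.69 (1.13 to 2.42). The intervals of the 2 receptors overlapped in each experiment, only slightly in experiment 1. Overlap does not show that the values are equal, and no interval of their ratio was computed. Tfr2 had the higher value in experiments 1 and 3, and Tfrc in experiment 2.

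In both receptor genes the ends that were found gathered near the start. Their promoter table entries list several starts. Within 1 kb of the outermost start of Tfrc lay 64.0% (42.5 to 82.0%), 31.8% (18.6 to 47.6%) and 26.7% (12.3 to 45.9%) of the window's ends, where an even spread would put 6.92%. In experiment 1, 19 of the 20 ends within Tfrc lay in the section nearest the start, and sections 2 to 4 held 0. For a count of 0 in such a section the interval reaches a relative density of 2.21. In Tfr2 the share near the outermost start was 37.5% (22.7 to 54.2%), 29.6% (13.8 to 50.2%) and 24.2% (11.1 to 42.3%), where an even spread would put 8.60%. Around inner starts the shares were up to 76.0% for Tfrc in experiment 1, at 32609122, and 47.5%, 40.7% and 21.2% for Tfr2, at 137570720. Over all genes with a start in the table the median share was 19.9%, 7.55% and 11.8%, or 3.34, 1.93 and 2.53 times an even spread, and over the 951 at 2-fold or more in every experiment it was 37.9%, 38.8% and 37.2%. The shares of both genes were thus above an even spread in each pool, as is common among genes, although in experiment 3 the densest section of Tfr2 was the last, with 9 of 25 ends. Actl6b reaches into the upstream flank of Tfr2, and the shared 2261 bp held 0, 2 and 2 ends. Over 17492 protein-coding genes with a start in the promoter table, the median relative density near the start was 2.87, 1.42 and 2.44. Over the same 951 dense genes it was 21.5, 6.62 and 10.6. Tfrc had 22.9, 6.62 and 6.49 there and Tfr2 21.5, 3.78 and 6.49.

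The sequences before the outermost starts of both receptors are shown because many of their ends lay around these starts. In experiment 1 more ends of each gene lay around an inner start. The inner starts lie 0.226 kb further in for Tfrc and 0.880 and 1.14 kb for Tfr2. They are from RefSeq on GRCm38.p6, plus strand, at chr5:137569590-137569839 and chr16:32608646-32608895. Capitals mark GC boxes (GGGCGG, either strand) in Tfr2 and GGCGCC in Tfrc.
Tfr2: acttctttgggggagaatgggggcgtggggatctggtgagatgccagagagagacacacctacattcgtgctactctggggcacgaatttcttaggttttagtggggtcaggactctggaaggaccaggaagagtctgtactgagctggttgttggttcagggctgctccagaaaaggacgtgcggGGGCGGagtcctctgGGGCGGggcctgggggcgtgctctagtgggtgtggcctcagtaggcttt
Tfrc: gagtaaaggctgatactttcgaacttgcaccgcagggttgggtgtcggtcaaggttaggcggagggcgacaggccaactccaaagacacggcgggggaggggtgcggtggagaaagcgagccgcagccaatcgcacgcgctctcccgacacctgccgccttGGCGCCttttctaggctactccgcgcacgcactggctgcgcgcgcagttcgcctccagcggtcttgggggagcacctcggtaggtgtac
Tfr2 holds GC boxes 64 and 49 bases before its start, a motif found in 32.7% of all promoter windows of that length. The GC content was 58.4% for Tfr2 and 64.8% for Tfrc, against a median of 52.4% over all windows. Neither sequence holds the E-box CACGTG (6.02% of all windows) or TATAAA (12.4%). The windows before the inner starts, not shown, differed. That of Tfrc holds a GC box and no GGCGCC, and those of Tfr2 hold neither.

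Slc40a1 encodes ferroportin, the cell's iron exporter (gene ID 53945, chr1:45908070-45926532). Its window held 74, 45 and 57 ends, a relative density of 9.05 (6.85 to 11.7), 1.81 (1.29 to 2.48) and 3.95 (2.94 to 5.19). Slc40a1 was thus above the mean in each pool, with ranks of 762, 2051 and 1045. The signal was one-sided. The section at the higher coordinate held 84.5% (74.0 to 92.0%), 53.8% (37.2 to 69.9%) and 42.9% (29.7 to 56.8%) of the ends within the gene. Within 1 kb of the higher boundary the relative density was 51.6 (35.5 to 72.5), 7.09 (3.78 to 12.1) and 13.8 (8.04 to 22.1), against 4.30, 0.945 and 1.62 within 1 kb of the lower boundary. The share at that end was larger in experiment 1 than in both others, with an interval just apart from theirs. These intervals count ends, and the 74 ends of experiment 1 came from 57 PETs. They can therefore be too narrow, and the separation is not secure. The pseudogene Gm18303 in the lower flank held 0, 0 and 1 ends.

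Fth1 encodes the heavy chain of ferritin, the iron store of cells (gene ID 14319, chr19:9980600-9985111, plus strand). Its window held 100, 53 and 37 ends, a relative density of 30.2 (23.6 to 38.0), 5.27 (3.81 to 7.10) and 6.32 (4.35 to 8.87), with ranks of 70, 78 and 281. Ferritin genes have many processed copies, and the sources used here do not give how reads matching several places were treated. The ends formed a narrow peak inside the annotated gene. The promoter table gives Fth1 an outermost start at 9980600 and a second start 2.05 kb inside it, at 9982646. Within 1 kb of the inner start lay 63.0% (52.8 to 72.4%), 77.4% (63.8 to 87.7%) and 75.7% (58.8 to 88.2%) of the window's ends, at a relative density of 90.3, 19.4 and 22.7. Within 1 kb of the outermost start lay 1, 2 and 2 ends. The inner start thus held most of the Fth1 signal in every pool. Of the remaining ends, 23, 7 and 6 lay in the 2440 bp that the window shares with Best1, the next gene downstream (8.29, 2.16 and 2.42 over its own window).

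The 250 bases before the inner start of Fth1 are shown because the peak lay around that start (RefSeq, GRCm38.p6, plus strand, chr19:9982396-9982645). Capitals mark GC boxes, GGGCGG or its reverse complement.
Fth1: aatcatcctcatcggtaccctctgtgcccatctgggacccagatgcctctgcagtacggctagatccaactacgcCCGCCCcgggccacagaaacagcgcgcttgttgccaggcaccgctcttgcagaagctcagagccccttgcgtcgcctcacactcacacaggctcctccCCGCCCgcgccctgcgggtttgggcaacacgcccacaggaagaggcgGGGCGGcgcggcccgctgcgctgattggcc
The 3 GC boxes lie 175, 77 and 30 bases before that start, and the GC content of the window is 66.8%. The window before the outermost start had a GC content of 34.8% and no GC box.

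The order of the 9 genes was most clearly resolved in experiment 1. There it ran Ttr, Trf, Rbp4, Fth1, Hamp, Slc40a1, Tfr2, Cp and Tfrc. The steps beyond counting error were Trf over Rbp4 (ratio 1.30, 1.05 to 1.61), Fth1 over Hamp (2.06, 1.31 to 3.31), Slc40a1 over Tfr2 (1.83, 1.18 to 2.89) and Tfr2 over Cp (1.66, 1.04 to 2.60). In experiment 2 the order was Rbp4, Ttr, Fth1, Trf, Slc40a1, Tfrc, Hamp, Tfr2 and Cp, and the 1 step beyond counting error was Trf over Slc40a1 (2.88, 2.00 to 4.24). In experiment 3 it was Rbp4, Ttr, Trf, Fth1, Slc40a1, Hamp, Tfr2, Cp and Tfrc, and the 1 such step was Fth1 over Slc40a1 (1.60, with a lower limit of 1.00). Ttr, Rbp4, Trf and Fth1 were thus the top 4 in each pool.

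Every gene was denser in experiment 1 than in experiment 2, by factors that differed between the genes. The ratio of relative densities was 10.3 (4.86 to 23.8) for Hamp, 8.37 (6.80 to 10.4) for Trf, 6.83 (5.38 to 8.71) for Ttr, 5.72 (3.87 to 8.55) for Fth1 and 4.99 (3.26 to 7.70) for Slc40a1. It was 4.49 (2.57 to 7.99) for Tfr2, 3.78 (2.90 to 4.94) for Rbp4, 2.98 (2.02 to 4.39) for Cp and 1.72 (0.982 to 2.96) for Tfrc, where the interval includes 1. Trf and Ttr were above Rbp4 with separate intervals, although all 3 are dense carrier genes. Over the 12766 protein-coding genes with at least 50 PETs the median ratio was 1.19, with quartiles of 0.829 and 2.06. A higher density in experiment 1 was not particular to the 9 genes. Each of the 10 hepatocyte markers was also denser there than in both other pools, with medians of 56.3, 6.41 and 11.7. Between experiments 3 and 2 the ratios were smaller, from 1.17 for Tfrc to 2.17 for Slc40a1 (median of all genes 1.27), and the intervals of Ttr, Trf, Tfr2, Slc40a1 and Cp lay above 1. Experiment 1 was also denser than experiment 3, the other pool crosslinked with EGS, with ratios from 1.47 (0.813 to 2.63) for Tfrc to 5.00 (2.42 to 11.1) for Hamp. The share of PETs within 8 kb differed between the pools in the same order, with 22.5%, 6.23% and 14.8% in experiments 1, 2 and 3. From PETs between chromosomes alone, the median relative density of the 9 genes was 12.4, 1.60 and 3.28.

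**Figure D3:**
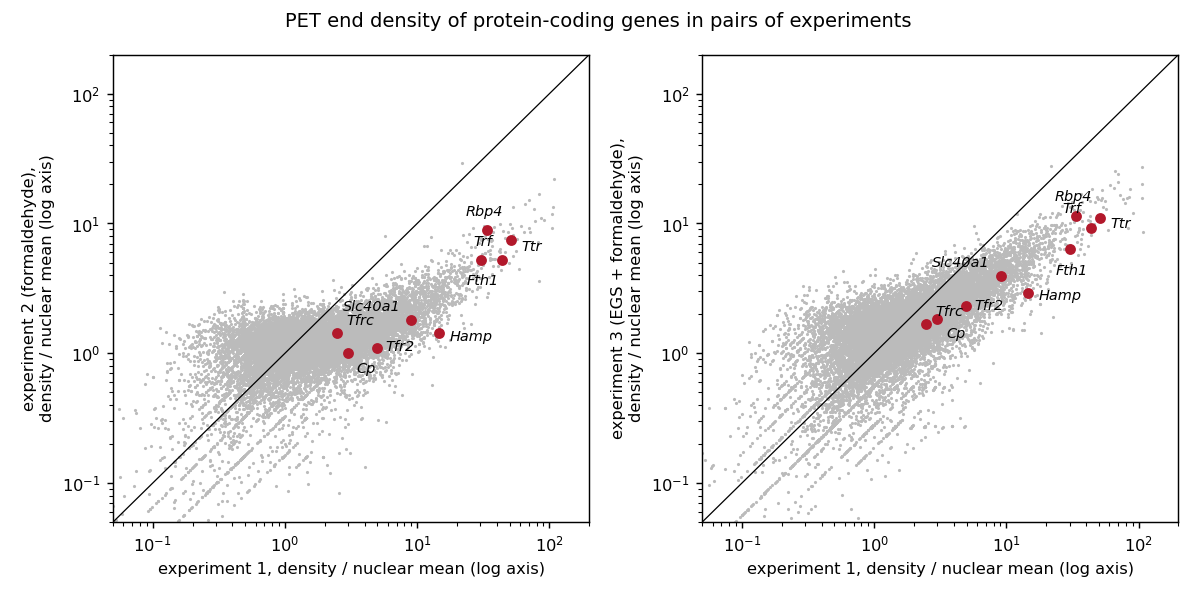
Relative density of each protein-coding gene with an end in both pools in experiment 2 (left) and experiment 3 (right) against experiment 1, on log axes. Grey points are genes, red points the 9 genes described and the line marks equal values. The 9 red points lie below the line in both panels, at ratios from 1.72 to 10.3 on the left and from 1.47 to 5.00 on the right.

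Taken as 1 pool of PETs, those over the 9 genes joined nearby ends more often than those of all genes. PETs with both ends within 8 kb made up 28.1% (25.2 to 31.2%) of the 914 PETs with an end over the 9 genes in experiment 1, 14.6% (11.7 to 17.8%) of 556 in experiment 2 and 15.4% (12.3 to 18.8%) of 508 in experiment 3. Over all protein-coding genes the shares were 20.4%, 5.12% and 11.9%. Over all nuclear PETs they were 22.5%, 6.23% and 14.8%, and the interval of experiment 3 includes the last of these. Shares over other dense genes were not computed. The interval lies above the share of all genes in each experiment, but not every gene did: in experiment 3 Ttr, Hamp, Tfrc and Slc40a1 had 10.8%, 9.09%, 3.45% and 11.8%, and in experiment 2 Hamp had 0 of 10 PETs (up to 30.8%) and Cp 1.67%. In experiment 1 the share was highest for Fth1, with 41.7% (30.2 to 53.9%), and lowest for Tfrc, with 8.70% (1.07 to 28.0%). Ttr had 27.6%, 12.3% and 10.8%, Rbp4 30.2%, 21.5% and 22.8%, and Trf 29.9%, 14.7% and 18.9% in experiments 1, 2 and 3.

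Contacts over longer distances were few. Of the PETs over the 9 genes, 72 joined ends on the same chromosome more than 8 kb apart, at a median distance of 32.3 Mb, and 7 of these were within 1 Mb. At least 1 PET of 8 kb to 1 Mb was seen for 6 of the 9 genes, against 22.3% of all protein-coding genes, and against 32.2% of the 12034 genes with 56 to 700 ends, the range of the 9. Per 1000 ends this was 2.94 (1.18 to 6.05), against 2.18 for all genes and 2.65 for the genes with as many ends. The interval includes both values. Without experiment 3, 4 of the 7 PETs were left.

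Each of the 7 contacts was a single PET. A PET of experiment 3 joined Ttr to Dsg2, the gene of a desmosomal cadherin, at 99.7 kb. Another of experiment 3 joined the start region of Rbp4 to Fra10ac1 at 66.2 kb. Trf was joined in experiment 2 to a point 1.66 kb from 1300017J02Rik at 19.8 kb, with its own end in the section where its signal peaked. Tfr2 was joined in experiment 3 to a point 37.8 kb away, 9.25 kb from Gnb2. The dense higher-coordinate end of Slc40a1 was joined in experiment 1 to Col5a2, a collagen gene, at 436 kb, and the middle of Slc40a1 in experiment 2 to a point 894 kb away, 226 kb from Gulp1. Cp was joined in experiment 1 to a point 934 kb away, 86.5 kb from Armc1. Hamp, Tfrc and Fth1 had none. Just beyond 1 Mb, a PET of experiment 1 joined Rbp4 to Cyp2c29, a liver cytochrome P450 gene, at 1.17 Mb.

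No PET joined one of the 9 genes to another. The far ends of their PETs between chromosomes fell over protein-coding genes in 52.0% (48.0 to 55.9%), 52.2% (47.5 to 56.9%) and 54.0% (49.1 to 58.9%) of cases in experiments 1, 2 and 3, and the shares over all such ends were 51.7%, 47.8% and 53.1%. The far ends fell over genes at 2-fold or more in every experiment in 5.55% (3.89 to 7.63%), 2.00% (0.919 to 3.76%) and 4.16% (2.44 to 6.57%) of cases, against 4.20%, 1.23% and 2.16% of all such ends. In experiment 3 that interval lies above the share of all ends, and in experiments 1 and 2 it includes it. Between chromosomes, 18 pairs of one of the 9 genes and a partner gene were seen in 2 PETs. No such pair was seen in 3 PETs. Partners with many ends of their own were among them, such as Nrxn3 with Trf (4178 ends) and Rbfox1 with Cp (3939), and also liver genes, C3 with Rbp4 (399) and Cyp2e1 with Cp (497). Most of the 18 pairs came from experiment 1 alone, and none from experiment 2 or 3 alone. Nrxn3 with Trf and Cyp2e1 with Cp were both from experiment 1 alone. Collapsing near-duplicates within 2 bp removed 9167, 12 and 185 PETs of all those in experiments 1, 2 and 3. Whether the repeated pairs hold duplicates was not tested, and the number of such pairs to be expected was not computed.

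Other genes of the same systems were taken from lists. Of 34 further iron genes, 20, 8 and 17 were at 2-fold or more in experiments 1, 2 and 3, and 8 in every experiment. Over all protein-coding genes the shares were 27.7%, 6.52% and 25.4%, and 5.32% in every experiment, the background for each list. The list medians were 2.53, 1.41 and 2.01. The densest were Ftl1, the light chain of ferritin (42.6, 9.95 and 15.0), Alas1, the first enzyme of haem synthesis (52.7, 5.63 and 15.7), and Hpx, the haem carrier hemopexin (20.4, 4.34 and 3.73). The least dense were Hamp2 and Heph, the intestinal ferroxidase hephaestin (0.347, 0.458 and 0.484). Fth1 and Trf were thus in the range of the densest iron genes of the list, as Ftl1 was.

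Of 19 retinoid genes besides Rbp4, 8, 0 and 8 were at 2-fold or more, and none in every experiment, where the background of 5.32% leaves few to be seen in a list of this length. The densest were the receptor gene Rxra (4.59, 1.37 and 5.57), Dhrs4, a retinal reductase (5.36, 1.54 and 2.64), and Cyp26a1, which breaks down retinoic acid (1.96, 0.860 and 5.35). The least dense were Rarb, a retinoic acid receptor (1.07, 1.13 and 1.18), and Rdh16, a retinol dehydrogenase (1.02, 0.192 and 0.411). Rdh16 rests on 7, 4 and 5 ends, and its interval in experiment 1 was 0.373 to 2.21. Rbp4 was above each of these 19 genes in all 3 experiments.

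Of 14 thyroid hormone genes besides Ttr, 7, 3 and 6 were at 2-fold or more (background 27.7%, 6.52% and 25.4%), and 3 in every experiment (5.32%): Alb, whose product also binds thyroxine (105, 9.26 and 15.8), and the hormone-responsive genes Thrsp (35.5, 5.21 and 8.95) and Klf9 (11.1, 2.08 and 4.23). Among the least dense was Serpina7, the thyroxine-binding globulin gene (1.04, 0.861 and 0.296). Of the 3 plasma carriers of thyroxine, Alb and Ttr were therefore dense and Serpina7 was not.

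**Figure D4:**
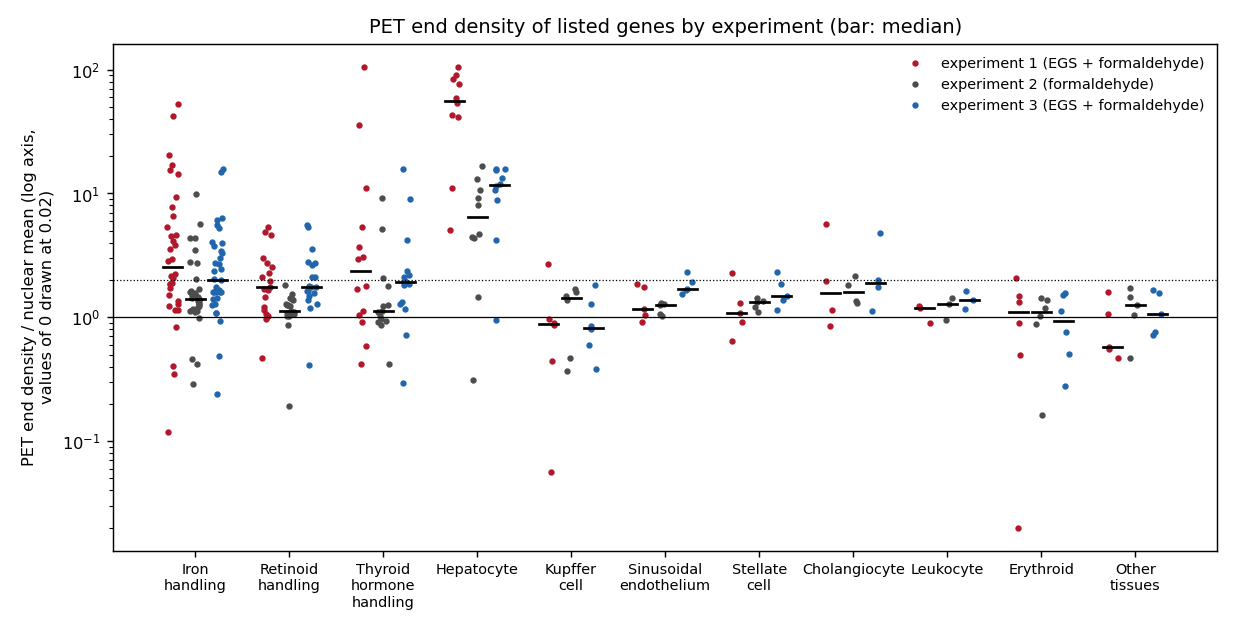
Relative density of each gene of the iron, retinoid and thyroid hormone lists and of the cell type marker lists, on a log axis, by experiment. Points are genes, black bars list medians, the solid line the nuclear mean and the dotted line 2-fold, and a value of 0 is drawn at 0.02. The hepatocyte markers have medians of 56.3, 6.41 and 11.7, and the other marker lists lie around the mean.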

How the data were processed

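The authors deposited 1 table for all 8 libraries, with a row for each PET that gives its experiment, its linkers and, as the other values used here, the positions of both ends and their distance. Bowtie2 and the build mm10 are named in the submitters' processing notes; the sources used here do not give versions, filters, multi-mapping or duplicate treatment. PET ends within a gene of the RefSeq table (GRCm38.p6) and 2.5 kb either side were counted per experiment and divided by the nuclear mean (ends over 2722202177 bp). Intervals are exact Poisson on PETs, exact binomial (Clopper-Pearson) for shares and exact conditional binomial for ratios, at 95%. Shares along a gene count ends, so both ends of 1 PET can enter and these intervals can be too narrow. A gene was called at 2-fold or more, and no p-value was computed. Depth was 948932, 2877704 and 1675942 nuclear ends.

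A day and night comparison with a count model had been planned and was not run, because the table names no library. No column of values per sample was left unused (0). The 9 genes and all lists were chosen with earlier results of these data known. Named were the 9 genes, genes overlapping their windows, Hamp2, the 3 densest and 2 least dense genes of each list by combined relative density, the 3 genes most like Ttr, Rbp4 and Trf, and partners of PETs up to 1 Mb; Sox9, Cyp2e1, C3, Nrxn3, Rbfox1 and Cyp2c29 were chosen after their values were seen. Some genes that this rule names are not reported here. Of the 35 iron symbols 34 were used, since Mfsd7b is an older symbol of the listed Flvcr1. Alternatives changed the flank, PET class, near-duplicates, reference, fold, start distance and contact distance. Counting was tested on simulated PETs. Python 3.11.15, NumPy 2.4.6, SciPy 1.17.1 and Matplotlib 3.10.9 were used.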

Additional observations from a re-analysis of the deposited data

How the results depend on the processing

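Counts of PETs limited these values, above all for Hamp, with 10 ends in experiment 2. The top 4 genes were the same under each flank and PET class tried, and in experiment 1 all 9 places of the order were kept under each flank. The median relative density over the 9 genes in experiment 1 was 34.5 with no flank, 8.61 with a flank of 5 kb and 22.9 from PETs within 8 kb. In experiment 2 it was 7.76 from PETs within 8 kb and 2.61 relative to the 1 Mb either side, and in experiment 3 it was 5.63 from PETs within 8 kb and 2.79 relative to the median protein-coding gene. The number of genes at 2-fold or more in every experiment was 7 without experiment 2, where 19.0% of all protein-coding genes reached it. From PETs within 8 kb it was 6, against 16.6% of all genes. The other alternatives at 2-fold gave 4 or 5, against 2.96% to 6.43% of all genes. At 1.5-fold 5 genes were counted (13.1% of all genes), and at 3-fold 4 (1.69%). The PETs of 8 kb to 1 Mb numbered 4 with a maximum of 100 kb and 4 without experiment 3. Tfrc in experiment 3 fell below the nuclear mean, to 0.762, from PETs within 8 kb only. Of 243 alternative values of single genes, 170 stayed within the counting interval. Tfrc in experiment 3 was the 1 gene whose interval excluded the mean and whose value crossed it; values of Hamp, Tfr2 and Cp in experiment 2, with intervals that include the mean, also crossed it (Hamp 0.811 with a flank of 5 kb). Hamp was at 2-fold in every experiment with no flank or 1 kb, but with no flank it held 4 and 5 ends in experiments 2 and 3. The cause was not tested for these changes, beyond fewer PETs or samples where an alternative removes them. No paired analysis was possible because the table names no library, although libraries of experiment 1 share replicate numbers in the labels.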
